A study of Mus musculus with 24 samples.

Results

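Amino acids and small peptides enter the intestinal epithelium through carriers of the apical brush border and leave it through carriers of the basolateral membrane. The genes described here encode 10 of these carriers or their subunits, 6 placed on the apical side (Slc15a1, Slc6a19, Slc6a20a, Slc7a9, Slc3a1 and Slc1a1) and 4 on the basolateral side (Slc7a7, Slc7a8, Slc3a2 and Slc7a5). They were taken from 30702 mouse genes with at least 1 probe set annotated to that symbol alone, and each of the 10 had exactly 1 such probe set. Membership was by name, the list having been drawn up with earlier results of these data known, and all 10 were tested in every comparison with no filter on low signals.

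Total RNA was hybridised to 24 Affymetrix arrays, which fall into 6 groups of 4. The groups were organoids of adult mouse intestine at day 30 and at day 3 of culture, organoids of E19 fetal intestine at day 30 and at day 3, adult intestine, and intestine of newborn mice at P0. Organoids are grown as epithelial cultures, and those studied here were all kept in ENR, a medium that holds EGF, Noggin and R-spondin. Signals of other cell types were still seen in fetal day 3 organoids. The mean of 9 mesenchyme genes was 5.99 to 6.86 on their arrays, against 5.04 to 5.39 on fetal day 30 arrays. The labels give no strain, treatment, exact adult age or region of intestine, and no tissue of E19, so fetal organoids were set against P0 intestine, a later stage. They do not say whether the 4 replicates of a group came from separate animals or cultures, and p-values measure only the spread between these arrays.

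Most dietary protein reaches the enterocyte as di- and tripeptides, which PEPT1 (Slc15a1) takes up with protons, and as free amino acids, which several sodium-coupled or exchanging carriers take up. B0AT1 (Slc6a19) carries neutral amino acids and SIT1 (Slc6a20a) carries proline and other imino acids. The light chain b0,+AT (Slc7a9) and the heavy chain rBAT (Slc3a1) form the exchanger for cystine and dibasic amino acids that is defective in cystinuria, and EAAT3 (Slc1a1) carries glutamate and aspartate. On the basolateral side the heavy chain 4F2hc (Slc3a2) pairs with the light chains y+LAT1 (Slc7a7), which exports dibasic amino acids, LAT2 (Slc7a8), which exchanges neutral ones, and LAT1 (Slc7a5), which takes up large neutral ones and is known from growing cells.

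All values below are levels on the log2 scale of the deposited signals, and differences are log2 differences of group means with their standard error (SE). Levels were not compared between genes, since each probe set has its own response. A gene is said to be higher or lower, or to have risen or fallen, where limma's moderated test gave a Benjamini-Hochberg adjusted p under 0.05 over all 30702 genes of that comparison. As a guide to background, negative controls had a median of 3.84 to 4.61 and a 95th percentile of 7.27 to 8.06, depending on the array. All 4 arrays of a group lay under that percentile for Slc1a1 in fetal day 30 and day 3 organoids and P0 intestine, and for Slc7a5 in adult and P0 intestine. The same held for Slc15a1 and Slc7a9 in adult and fetal day 30 organoids and for Slc6a19 in adult day 30 organoids. Folds against these groups are folds of the signals, and the size of the change in RNA is not given by them.

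Some arrays stood apart within their group. Adult intestine array 1 had 7.18 of the ileal bile acid carrier gene Slc10a2, against 3.34 to 3.42 on the other 3 adult intestine arrays. The same array had 4.31 of Onecut2, a transcription factor gene of the proximal intestine, against 7.52 to 8.01 on those arrays. Fetal day 3 arrays 2 and 3 had means of 9.22 and 9.14 over an 8-gene stomach list, against 7.19 on array 1 and 5.40 on array 4. P0 arrays 2 and 3 had 3.81 and 4.01 of Xist, against 10.60 and 10.53 on P0 arrays 1 and 4. Calls that ended or appeared without these arrays are given with both values.

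The level of Slc15a1 was 5.74, 7.09, 7.22 and 6.80 on the adult day 30 organoid arrays and 7.96, 7.22, 8.66 and 7.86 on the adult day 3 ones. On the fetal organoid arrays it was 6.92, 7.13, 6.42 and 7.13 at day 30 and 7.35, 7.38, 7.64 and 8.22 at day 3. The intestine arrays gave 11.11, 11.29, 11.39 and 10.66 for Slc15a1 in adult mice and 9.46, 8.94, 8.98 and 9.15 at P0. Adult intestine thus had the highest levels and P0 intestine the next, and neither overlapped the other or any organoid group. The 6 group means of this peptide transporter spanned 4.4, which was the widest span of the 10 genes.

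Slc6a19, the neutral amino acid carrier, had 6.48, 7.27, 7.09 and 6.68 on the adult day 30 organoid arrays, and 7.90, 7.40, 8.27 and 7.78 on the adult day 3 ones. Fetal organoids gave 7.61, 7.81, 7.38 and 7.46 for Slc6a19 at day 30 and 7.83, 6.96, 7.37 and 8.18 at day 3. In the intestine, Slc6a19 had 9.83, 10.16, 9.91 and 9.63 in adult mice and 9.60, 9.47, 9.49 and 9.47 at P0. All 8 intestine arrays lay above all 16 organoid arrays. Adult day 30 organoids lay below both adult day 3 and fetal day 30 organoids on every array. In the kidney B0AT1 needs collectrin (Cltrn) as its partner, and Cltrn averaged between 3.67 and 4.25 in the 6 groups.

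Slc6a20a, the imino acid carrier, had 8.81, 10.07, 9.28 and 9.73 in adult day 30 organoids and 10.07, 9.36, 10.68 and 10.26 in adult day 3 organoids. Its levels in fetal organoids were 9.90, 9.17, 9.32 and 9.47 at day 30 and 9.13, 7.97, 8.71 and 9.79 at day 3. The intestine arrays had 9.81, 11.14, 10.58 and 11.21 of Slc6a20a in adult mice and 10.04, 9.01, 8.97 and 9.44 at P0. Neighbours in the order of its 6 group means overlapped in every case. Adult intestine array 1 was the lowest of its group for this gene, and fetal day 3 array 2 was the lowest of all 24.

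Of the cystine and dibasic exchanger, the light chain Slc7a9 averaged 7.22 ± 0.34 in adult day 30 organoids, 7.26 ± 0.45 in adult day 3 organoids, 7.19 ± 0.30 in fetal day 30 organoids and 7.74 ± 0.31 in fetal day 3 organoids (SD, n = 4 each). The intestine means of Slc7a9 were 9.09 ± 0.27 in adult mice and 8.69 ± 0.07 at P0. Its heavy chain Slc3a1 averaged 9.54 ± 0.14 and 9.77 ± 0.31 in adult organoids at day 30 and day 3, 9.09 ± 0.23 and 9.43 ± 0.53 in fetal organoids at day 30 and day 3, and 10.63 ± 0.21 and 10.41 ± 0.02 in adult and P0 intestine. For both subunits, no organoid array reached the level of the lowest intestine array.

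Slc1a1, the glutamate carrier, had another order of groups than Slc15a1, Slc6a19, Slc7a9 and Slc3a1, whose means were highest in the intestine groups. Slc6a20a also had its lowest means in P0 intestine and fetal day 3 organoids, at 9.36 and 8.90, with overlapping arrays. Slc1a1 had 7.86, 8.17, 7.75 and 8.15 in adult day 30 organoids and 7.43, 7.36, 6.94 and 7.79 in adult day 3 organoids. Fetal organoids had 6.89, 7.47, 6.53 and 7.14 of Slc1a1 at day 30, and 5.25, 4.71, 4.82 and 6.15 at day 3. Adult intestine had 9.63, 8.08, 8.14 and 7.71, and P0 intestine 5.16, 5.0, 5.14 and 5.23. Fetal day 3 organoids and P0 intestine overlapped at the low end, and every array of the other 4 groups lay above both. At P0 the Slc1a1 signal exceeded only 62.0% to 67.3% of the negative control probe sets of its array, so it was close to background there, and in fetal day 3 organoids it exceeded 64.5% to 85.0% of them. Adult intestine array 1, which carried the ileal marker, was the highest of all arrays for this gene.

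**Figure D1:**
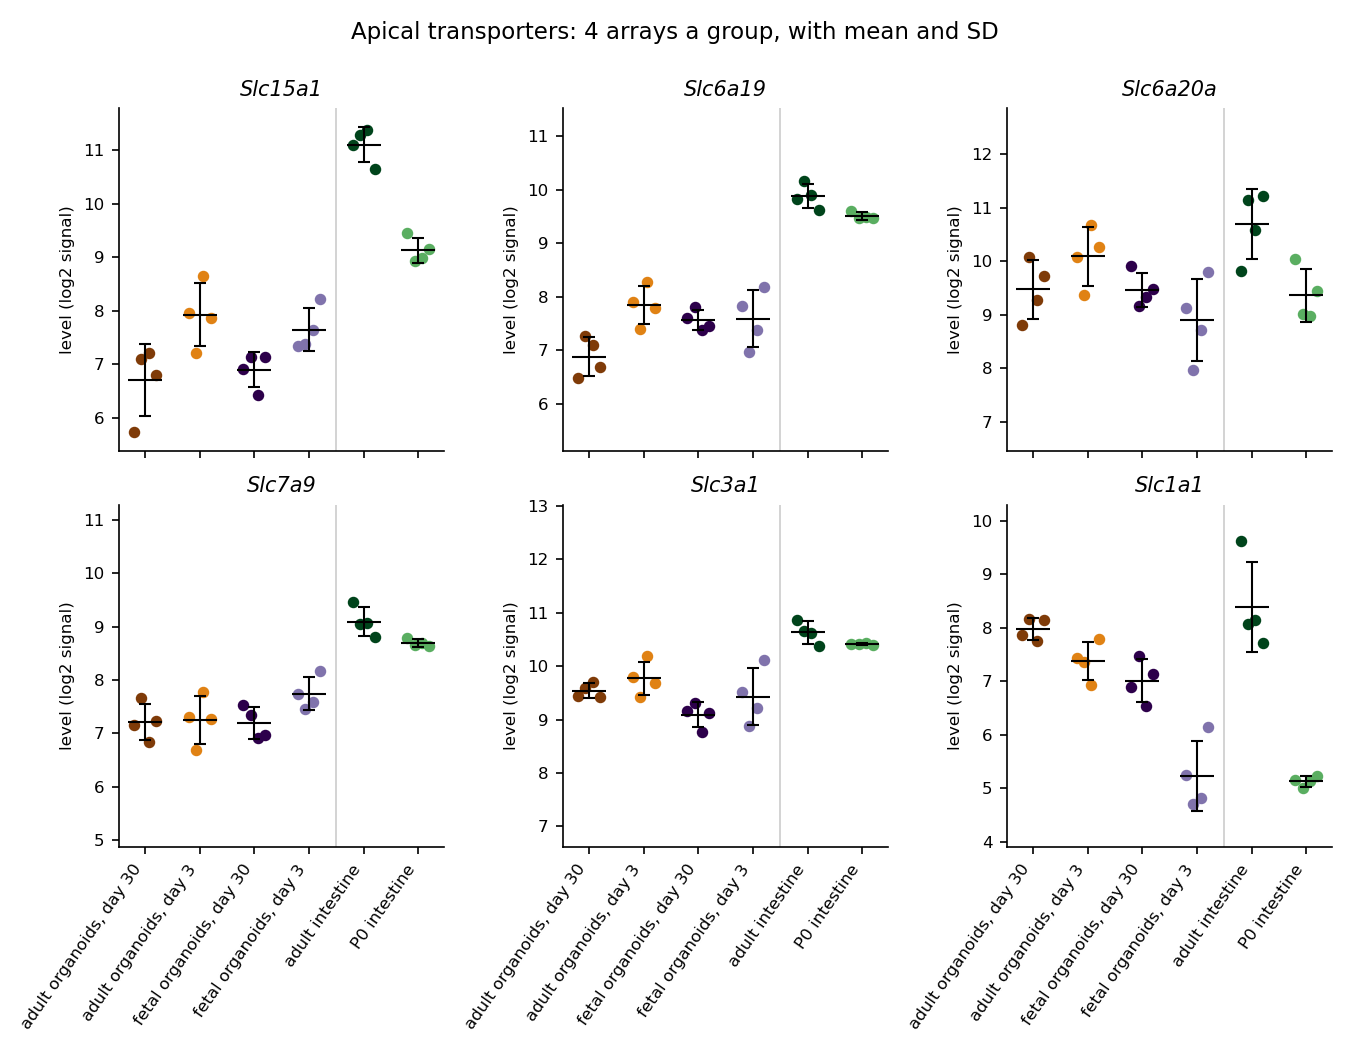
Log2 levels of the 6 apical genes (vertical axis, log2 signal) on each of 4 arrays in 6 groups (horizontal axis), with points for arrays and bars for the group mean and SD. Slc15a1, Slc6a19, Slc7a9 and Slc3a1 were at their highest in adult and P0 intestine, whereas Slc1a1 averaged 5.23 in fetal day 3 organoids and 5.13 in P0 intestine, against 7.01 or more in the other groups.

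Among the basolateral genes, Slc7a7 averaged 8.61 ± 0.31 and 8.66 ± 0.32 in adult organoids at day 30 and day 3, and 8.56 ± 0.25 and 8.84 ± 0.39 in fetal organoids at day 30 and day 3 (SD, n = 4 each). Intestine means of this exporter of dibasic amino acids were 10.08 ± 0.19 in adult mice and 10.16 ± 0.06 at P0. The 4 organoid groups overlapped each other, the 2 intestine groups overlapped each other, and the organoid and intestine arrays were apart by level.

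Slc7a8 had 8.36, 8.91, 8.32 and 8.56 in adult day 30 organoids and 8.03, 8.44, 8.45 and 8.80 in adult day 3 organoids. Its levels were 8.92, 9.38, 8.76 and 8.88 in fetal day 30 organoids and 8.23, 7.74, 7.79 and 9.39 in fetal day 3 organoids. Adult intestine had 10.41, 11.44, 11.34 and 10.95 of Slc7a8, and P0 intestine 10.62, 10.51, 10.38 and 10.58. The arrays of this neutral amino acid exchanger fell into a low organoid range and a high intestine range, with fetal day 3 array 4 well above the other 3 arrays of its group.

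The shared heavy chain Slc3a2 had the smallest span of group means, 1.09. It averaged 8.12 ± 0.11 and 8.21 ± 0.14 in adult organoids at day 30 and day 3, 8.32 ± 0.15 and 8.57 ± 0.18 in fetal organoids at day 30 and day 3, and 9.21 ± 0.21 and 8.97 ± 0.03 in adult and P0 intestine (SD, n = 4 each). Its 3 partner light chains were measured in the same arrays, and they did not share 1 pattern.

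Slc7a5, the light chain of LAT1, ran the other way from the rest. Its level was 7.38, 7.25, 7.85 and 7.54 in adult day 30 organoids and 7.70, 8.01, 7.36 and 7.33 in adult day 3 organoids. Fetal organoids had 7.42, 7.58, 7.94 and 8.06 of Slc7a5 at day 30 and 8.92, 8.74, 8.61 and 7.96 at day 3. Adult intestine had 6.65, 6.44, 6.46 and 5.95, and P0 intestine 6.38, 6.76, 6.93 and 6.49. In adult intestine the Slc7a5 signal exceeded 78.9% to 83.5% of the negative controls of its array. Every organoid array lay above every intestine array, and 3 of the 4 fetal day 3 arrays lay above all other arrays.

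**Figure D2:**
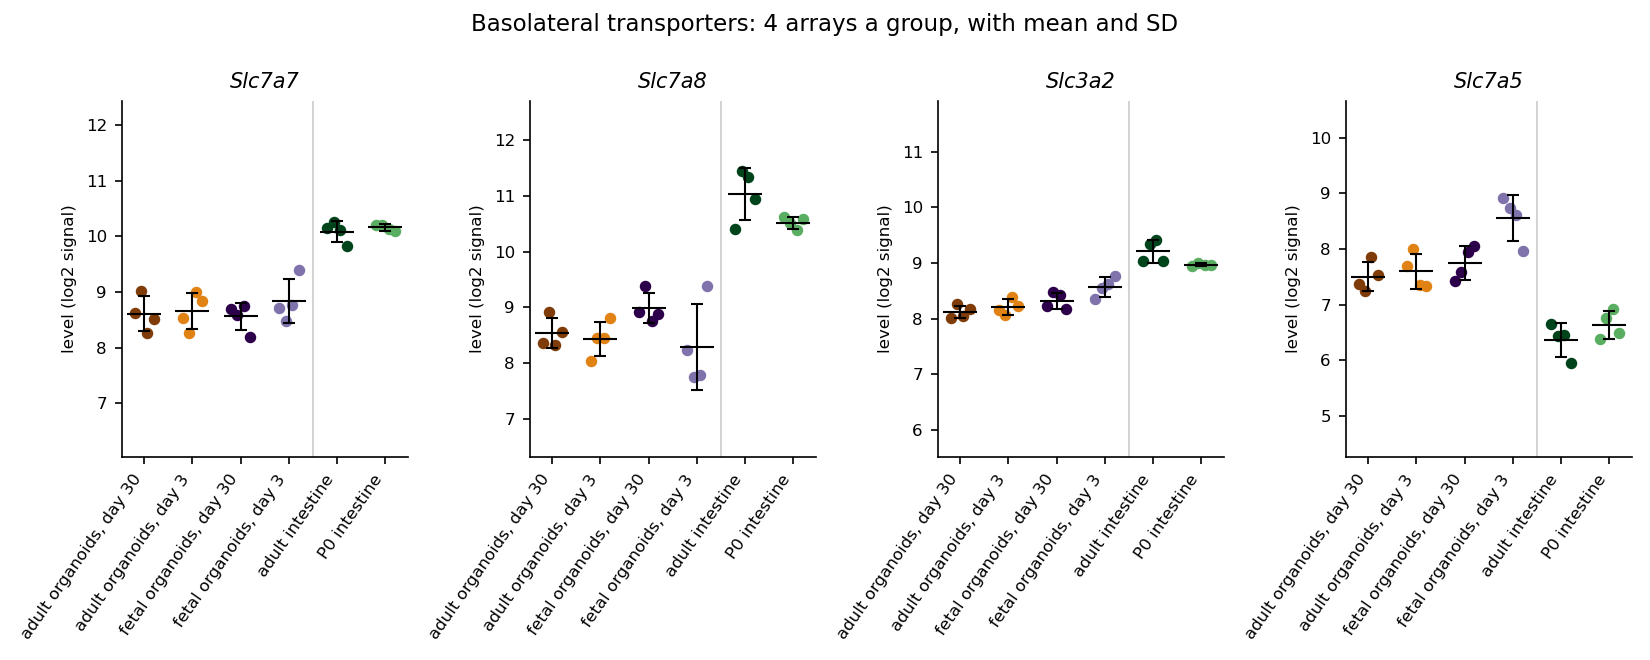
Log2 levels of the 4 basolateral genes (vertical axis, log2 signal) on each of 4 arrays in 6 groups (horizontal axis), with points for arrays and bars for the group mean and SD. Slc7a7, Slc7a8 and Slc3a2 were lower in the organoid groups than in intestine, and Slc7a5 ran from 7.25 to 8.92 on organoid arrays, above the 5.95 to 6.93 of intestine arrays.

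The region around the annotated start is shown for 4 genes, since Slc15a1 had the widest span, Slc1a1 the largest difference of the 10 between adult and P0 intestine, and Slc3a1 and Slc3a2 encode the heavy chains. Each window runs 5′ to 3′ on the gene's strand, from 250 bases before the start to 50 after it, as given by RefSeq for mouse build GRCm38.p6. Capitals mark motif letters found on either strand. Slc15a1 lies at chr14:121505205-121505504 on the minus strand, Slc1a1 at chr19:28834885-28835184 on the plus strand, Slc3a1 at chr17:85028097-85028396 on the plus strand and Slc3a2 at chr19:8713848-8714147 on the minus strand. The Slc3a2 gene spans chr19:8706882-8723369, so its window is at an annotated start inside the gene and not at the gene's 5′ end.
Slc15a1: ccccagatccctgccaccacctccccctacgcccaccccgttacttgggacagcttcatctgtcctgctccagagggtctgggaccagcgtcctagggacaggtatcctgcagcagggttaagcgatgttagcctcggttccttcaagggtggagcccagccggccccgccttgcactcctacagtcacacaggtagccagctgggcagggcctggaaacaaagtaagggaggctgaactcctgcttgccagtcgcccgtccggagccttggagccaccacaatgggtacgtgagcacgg
Slc1a1: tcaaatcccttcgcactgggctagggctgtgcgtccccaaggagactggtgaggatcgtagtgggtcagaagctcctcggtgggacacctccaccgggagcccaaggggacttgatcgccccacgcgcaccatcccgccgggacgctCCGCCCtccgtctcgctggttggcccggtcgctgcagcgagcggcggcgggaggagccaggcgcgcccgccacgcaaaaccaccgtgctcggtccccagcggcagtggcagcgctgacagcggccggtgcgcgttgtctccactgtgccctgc
Slc3a1: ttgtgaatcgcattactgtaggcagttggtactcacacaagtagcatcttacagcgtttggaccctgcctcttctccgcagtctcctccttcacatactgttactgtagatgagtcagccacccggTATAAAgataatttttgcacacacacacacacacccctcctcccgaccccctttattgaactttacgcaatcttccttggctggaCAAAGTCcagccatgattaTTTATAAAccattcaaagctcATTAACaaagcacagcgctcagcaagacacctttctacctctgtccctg
Slc3a2: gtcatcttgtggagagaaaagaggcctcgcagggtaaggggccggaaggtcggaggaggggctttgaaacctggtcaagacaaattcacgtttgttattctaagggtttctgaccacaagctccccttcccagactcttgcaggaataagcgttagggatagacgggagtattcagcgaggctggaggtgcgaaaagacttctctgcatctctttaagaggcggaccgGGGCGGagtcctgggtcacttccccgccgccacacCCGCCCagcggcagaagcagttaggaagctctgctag

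The motifs searched were TTTATG for CDX, GTTAAT for HNF1, CAAAGTC for HNF4, TGATGCA for the amino acid response element, TATAAA for the TATA box and GGGCGG for the GC box, on both strands. Slc15a1 had none of these letters in its window, which was 62.7% G and C. Slc1a1, at 70.3% G and C, had 1 GC box whose letters began 103 bases before the start. Slc3a1, at 46.3% G and C, had HNF4 letters 39 bases before the start, HNF1 letters that began 1 base into the part after the start, and 3 TATA matches, of which those beginning 20 and 18 bases before the start overlap. Slc3a2, at 56.0% G and C, had 2 GC boxes, 1 of them 22 bases before the start.

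Across the family, 9 of the 10 genes matched 14 RefSeq windows, 5 of them from Slc7a7 and overlapping in part. Slc7a5 had no window, so it was not searched for any motif. The genes holding each motif numbered 3 for HNF1 (Slc6a20a, Slc3a1 and Slc7a7), 2 for HNF4, 1 for the amino acid response element (Slc7a7), 1 for the TATA box, 5 for the GC box and 0 for CDX. Counted by window, of the 14 there were 3 with HNF1, 2 with HNF4, 2 with the amino acid response element, 1 with the TATA box, 7 with the GC box and 0 with CDX. The 2 with the response element are overlapping Slc7a7 windows that hold the same site. Of all 32851 mouse windows of the same length, 7.1% held the HNF1 letters, 4.44% those of HNF4, 3.15% those of the amino acid response element, 13.6% the TATA box, 35.7% the GC box and 11.9% the CDX letters. A match describes the letters only.

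The comparison of adult with P0 intestine asks how the tissue differs between adult and newborn mice. Slc1a1 was higher in adult intestine by 3.26 ± 0.32 (SE, adjusted p = 3.5e-08), with means of 8.39 in adult intestine and, close to background, 5.13 in P0 intestine. Slc15a1 was higher by 1.98 ± 0.29 (adjusted p = 1.3e-05), or 3.95-fold, with means of 11.11 in adult and 9.13 in P0 intestine. Slc6a20a was higher by 1.32 ± 0.37 (adjusted p = 0.0088), with means of 10.69 in adult and 9.36 in P0 intestine and overlapping arrays. Called genes were thus 3 of the 10, all higher, against 27.1% of all genes called, 15.0% higher and 12.2% lower, so the count was close to that of all genes. They were 3 of the 6 apical genes and 0 of the 4 basolateral ones, with a median difference of 0.86 over the apical and 0.08 over the basolateral genes, against 0.08 over all genes.

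The other 7 genes were not called between adult and P0 intestine. At an unadjusted p under 0.05 the count was 4, against 38.2% of all genes, which added Slc3a2 at 0.25 (95% interval 0.03 to 0.46, adjusted p = 0.083). Slc7a7 was at -0.08 (interval -0.45 to 0.29) and Slc7a5 at -0.27 (interval -0.69 to 0.16). Without adult intestine array 1 the difference was 2.84 for Slc1a1 (adjusted p = 2.2e-08), 1.98 for Slc15a1, 1.61 for Slc6a20a (adjusted p = 0.0021) and 0.31 for Slc3a2 (adjusted p = 0.041). Without P0 arrays 2 and 3 the Slc6a20a difference was 0.95 and no longer called (adjusted p = 0.17).

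In the same tissue comparison, markers of other cell types moved with age. Of the measured mesenchyme genes, 8 of 9 were lower in adult intestine, with array means of the list between 6.93 and 7.55, against 8.39 to 8.99 at P0. Of the enterocyte genes, 6 of 16 were higher and 1 lower in adult intestine, and of the epithelium genes 8 of 10 were higher. In whole intestine fewer cells of a type and less RNA per cell cannot be told apart, and the part of these markers in the transporter differences was not tested.

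Between adult and fetal organoids at day 3, Slc1a1 again had the largest difference of the 10 genes. It was higher in adult organoids by 2.14 ± 0.32 (SE, limma adjusted p = 3.3e-05), with fetal signals near background, and the arrays of the 2 groups did not overlap. Slc6a20a was higher in adult organoids by 1.19 ± 0.37 (adjusted p = 0.019). Slc7a5 was lower in adult organoids by 1.95-fold (-0.96 ± 0.20, adjusted p = 0.0012) and its heavy chain Slc3a2 by 1.29-fold (-0.36 ± 0.10, adjusted p = 0.012). These were 4 of the 10 genes against 24.6% of all genes called.

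At day 3 the remaining 6 transporters were not called between ages. Slc7a9 was at -0.47 (95% interval -0.89 to -0.05, adjusted p = 0.096), and Slc15a1 at 0.28 (interval -0.32 to 0.88). Slc7a9 was called without adult array 3 (-0.65, adjusted p = 0.023) and Slc3a1, at 0.34 on all arrays, without fetal array 4 (0.57, adjusted p = 0.012). Without fetal day 3 arrays 2 and 3, which carried the stomach genes, Slc6a20a was at 0.63 (adjusted p = 0.31) and Slc3a2 at -0.35 (adjusted p = 0.074), so 2 of the 4 calls ended, while Slc1a1 (1.67, adjusted p = 0.0035) and Slc7a5 (-0.84, adjusted p = 0.028) were still called. Slc6a20a was also not called after repeated quantile normalization (1.02, adjusted p = 0.064). The calls of Slc6a20a, without fetal array 2 or adult array 3 or 4, and of Slc3a2, without fetal array 4 or adult array 2, ended too, at adjusted p between 0.05 and 0.091.

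Fetal day 3 organoids also differed from adult ones in cell type markers. Of the stomach genes 6 of 8 were lower in adult organoids, and the list mean was 5.30 to 5.77 on adult day 3 arrays, against 5.40 to 9.22 on fetal ones. Mesenchyme genes were lower for 7 of 9, with list means of 5.14 to 6.28 in adult and 5.99 to 6.86 in fetal organoids. Of 3 distal intestine genes 2 were lower in adult organoids. The part of these markers in the day 3 differences was not tested.

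By day 30, adult and fetal organoids differed in 1 of the 10 transporters, against 8.97% of all genes. Slc6a19 was lower in adult organoids by 1.61-fold (-0.68 ± 0.21, adjusted p = 0.045), with means of 6.88 in adult and 7.56 in fetal organoids. Leaving out any of 6 of the 8 arrays ended this call, with differences of -0.75 to -0.55 and adjusted p of 0.055 to 0.17. Slc1a1 was at 0.98 ± 0.32 without a call (95% interval 0.31 to 1.64, adjusted p = 0.06), although its arrays did not overlap. Slc7a5 was at -0.25 (interval -0.67 to 0.17) and Slc6a20a at 0.01 (interval -0.75 to 0.76).

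**Figure D3:**
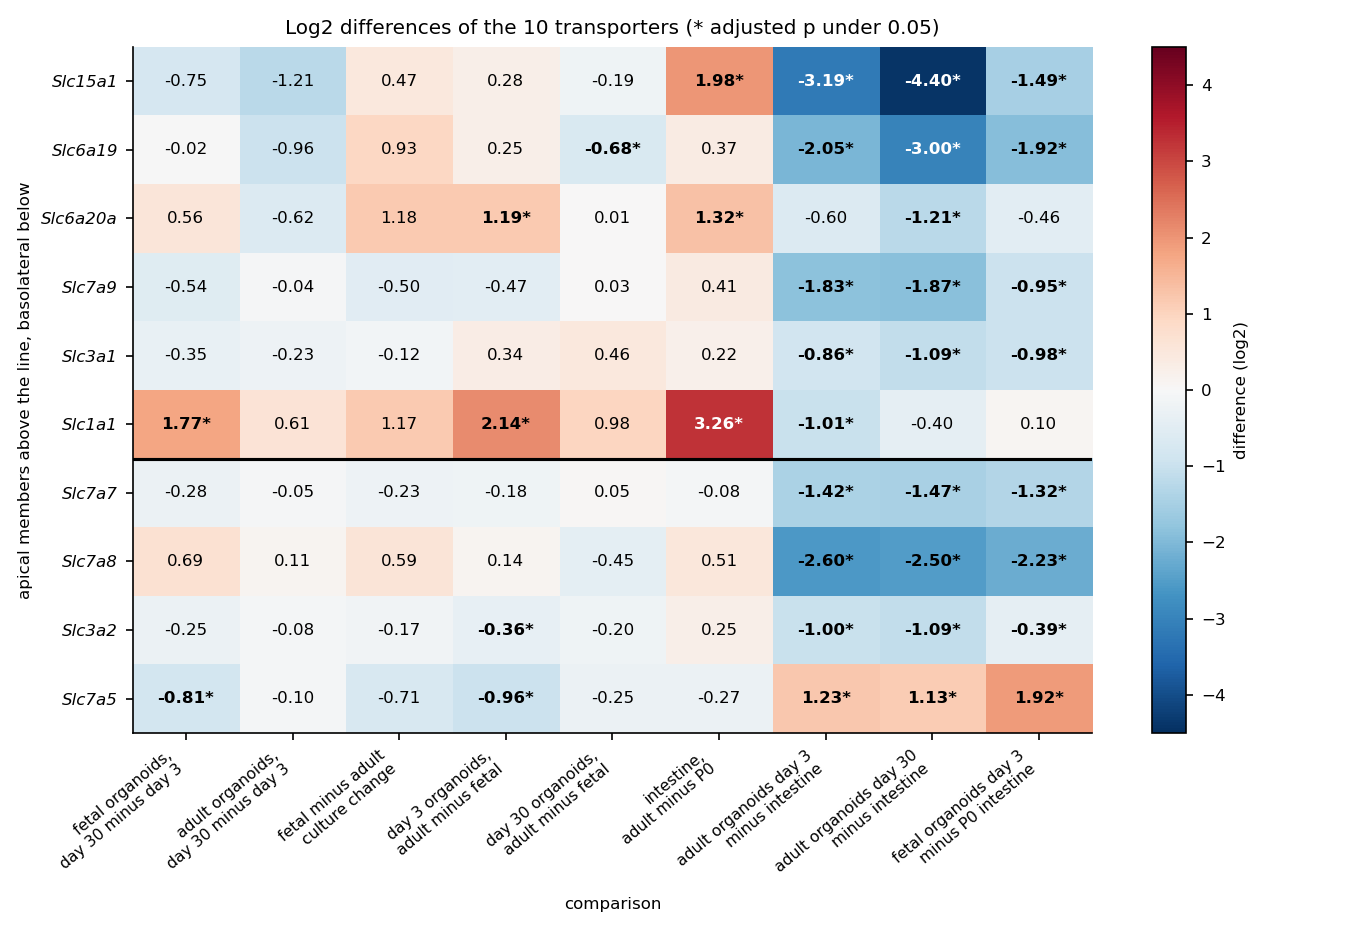
Log2 differences (colour and printed value, log2) of the 10 genes (rows, apical above the line and basolateral below) in 9 comparisons (columns, each the first-named group minus the second), with an asterisk where the adjusted p was under 0.05. The 3 columns of organoids minus intestine hold 26 of the asterisks, and the adult culture column holds 0.

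The change over culture asks whether organoids differ between day 30 and day 3. In fetal organoids Slc1a1 rose by 1.77 ± 0.32 (SE, limma adjusted p = 0.00043), with means of 7.01 at day 30 and 5.23, near background, at day 3. Slc7a5 fell by 1.75-fold (-0.81 ± 0.20, adjusted p = 0.0078), with means of 7.75 at day 30 and 8.56 at day 3. These 2 calls of 10 were close to the 15.5% of all genes called. Uncalled were Slc15a1 at -0.75 (95% interval -1.35 to -0.14, adjusted p = 0.091), Slc7a8 at 0.69 (interval 0.13 to 1.26, adjusted p = 0.09), and Slc7a9 at -0.54 (interval -0.96 to -0.12, adjusted p = 0.075).

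Without fetal day 3 arrays 2 and 3, Slc1a1 was called at 1.31 (adjusted p = 0.027), Slc7a5 was at -0.69 and not called (adjusted p = 0.094), and Slc3a1 was called at -0.73 (adjusted p = 0.014). Slc7a8 was at 0.17 without them, and without fetal day 3 array 4 it was called at 1.06 (adjusted p = 0.0013). Slc7a9 was called without fetal day 30 array 1 (-0.66, adjusted p = 0.046) and Slc3a2 without fetal day 3 array 1 (-0.33, adjusted p = 0.041). Over fetal culture 8 of 9 mesenchyme, 4 of 5 endothelium, 3 of 7 leukocyte and 5 of 8 stomach genes fell. Of 16 enterocyte genes 5 rose and 4 fell. The part of these markers in the changes of Slc1a1 and Slc7a5 was not tested.

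In adult organoids 0 of the 10 transporters were called between day 30 and day 3 by limma, as were 0.0489% of all genes. At an unadjusted p under 0.05 the count was 2, against 8.41% of all genes. Slc15a1 was at -1.21 ± 0.29 (95% interval -1.82 to -0.61, adjusted p = 0.13), with overlapping arrays. Slc6a19 was at -0.96 ± 0.21 (interval -1.40 to -0.52, adjusted p = 0.1), and its arrays did not overlap. Of 16 enterocyte genes 0 were called and 9 had an unadjusted p under 0.05, with a median of -0.33, and their part was not tested. With array weights both transporters were called, Slc15a1 at -1.32 (adjusted p = 0.02) and Slc6a19 at -1.0 (adjusted p = 0.015). Without adult day 30 array 3 both were called as well (adjusted p = 0.037 and 0.04), and Slc6a19 also without adult day 3 array 2 (adjusted p = 0.045).

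The change over culture was also compared between fetal and adult organoids in 1 test of the difference. By this limma test 0 of 10 transporters were called, against 2.99% of all genes, and 4 had an unadjusted p under 0.05, against 13.6% of all genes. For Slc1a1 the fetal change of 1.77 and the adult change of 0.61 differed by 1.17 (95% interval 0.23 to 2.10, adjusted p = 0.21). For Slc7a5 the fetal change of -0.81 and the adult change of -0.10 differed by -0.71 (interval -1.31 to -0.12, adjusted p = 0.24). For Slc6a19 the difference was 0.93 (adjusted p = 0.11), and with array weights it was 1.11 and called (adjusted p = 0.038). Without fetal day 3 array 4, Slc1a1 at 1.47 (adjusted p = 0.047) and Slc6a19 at 1.13 (adjusted p = 0.02) were called, and without fetal day 3 arrays 2 and 3 they were at 0.70 and 0.51 with no call.

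Organoids against intestine gave the widest differences of the family. In adult day 30 organoids 8 of the 10 transporters were lower than in adult intestine and 1 was higher. Of all genes 38.0% were called, 15.2% lower and 22.8% higher. Slc15a1 was lower by 21.1-fold (-4.4 ± 0.29, limma adjusted p = 3.2e-11), with means of 6.71 in organoids and 11.11 in intestine. Slc6a19 was lower by 8.01-fold (-3.0 ± 0.21, adjusted p = 8.4e-11) and Slc7a8 by 5.64-fold (-2.50 ± 0.27, adjusted p = 7.7e-08). Slc7a5 was 2.19-fold higher in organoids (1.13 ± 0.20, adjusted p = 8.1e-05).

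The other 5 genes called lower at day 30 were Slc7a9 at -1.87, Slc7a7 at -1.47, Slc6a20a at -1.21, Slc3a1 at -1.09 and Slc3a2 at -1.09, with adjusted p of 0.01 for Slc6a20a and smaller ones for the rest. Slc1a1 was the gene without a call, at -0.40 (95% interval -1.07 to 0.26, adjusted p = 0.37). Without adult intestine array 1 its difference was 0.01 (adjusted p = 0.98), and the same 9 other genes were called.

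In adult day 3 organoids the counts against adult intestine were again 8 lower and 1 higher of 10, while 35.4% of all genes were called, 13.5% lower and 21.9% higher. Slc15a1 was lower by 9.11-fold (-3.19 ± 0.29, adjusted p = 6.9e-09), Slc7a8 by 6.08-fold (-2.60 ± 0.27) and Slc6a19 by 4.13-fold (-2.05 ± 0.21). Slc7a5 was higher by 2.34-fold (1.23 ± 0.20, adjusted p = 3.4e-05). Here Slc6a20a was the gene without a call, at -0.60 (95% interval -1.35 to 0.16, adjusted p = 0.24), and Slc1a1 was lower at -1.01 ± 0.32 (adjusted p = 0.015). The Slc1a1 call ended without adult intestine array 1 (-0.60, adjusted p = 0.086) and without adult day 3 array 3 (-0.87, adjusted p = 0.057). The 2 adult comparisons share the intestine arrays.

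In fetal day 3 organoids 7 of the 10 transporters were lower than in P0 intestine and 1 was higher. Of all genes 44.3% were called, 13.8% lower and 30.5% higher. Slc7a8 was lower by 4.70-fold (-2.23 ± 0.27, adjusted p = 9.3e-07), Slc6a19 by 3.79-fold (-1.92 ± 0.21, adjusted p = 2.5e-07) and Slc15a1 by 2.80-fold (-1.49 ± 0.29, adjusted p = 0.0003). Slc7a7, Slc3a1, Slc7a9 and Slc3a2 were lower at -1.32, -0.98, -0.95 and -0.39. Slc7a5 was higher by 3.79-fold (1.92 ± 0.20, adjusted p = 1.4e-07), with means of 8.56 in organoids and 6.64 in P0 intestine. Slc6a20a at -0.46 (95% interval -1.22 to 0.29) and Slc1a1 at 0.10 (interval -0.56 to 0.76) were not called. The median of all genes was 0.14 in this comparison. The same 8 genes were called without fetal day 3 arrays 2 and 3, where Slc7a5 was at 1.80, and without P0 arrays 2 and 3, where it was at 2.12.

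Apical and basolateral genes had similar medians in these comparisons. In adult day 30 organoids minus intestine the median was -1.54 over the 6 apical and -1.28 over the 4 basolateral genes, and in day 3 organoids -1.42 and -1.21, against 0.01 and 0.02 over all genes. In fetal day 3 organoids minus P0 intestine it was -0.97 and -0.86. The called genes were 5 of 6 apical and 4 of 4 basolateral in each adult comparison, and 4 of 6 and 4 of 4 in the fetal one. No test of the sides was made, since the genes were chosen by name with earlier results known.

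**Figure D4:**
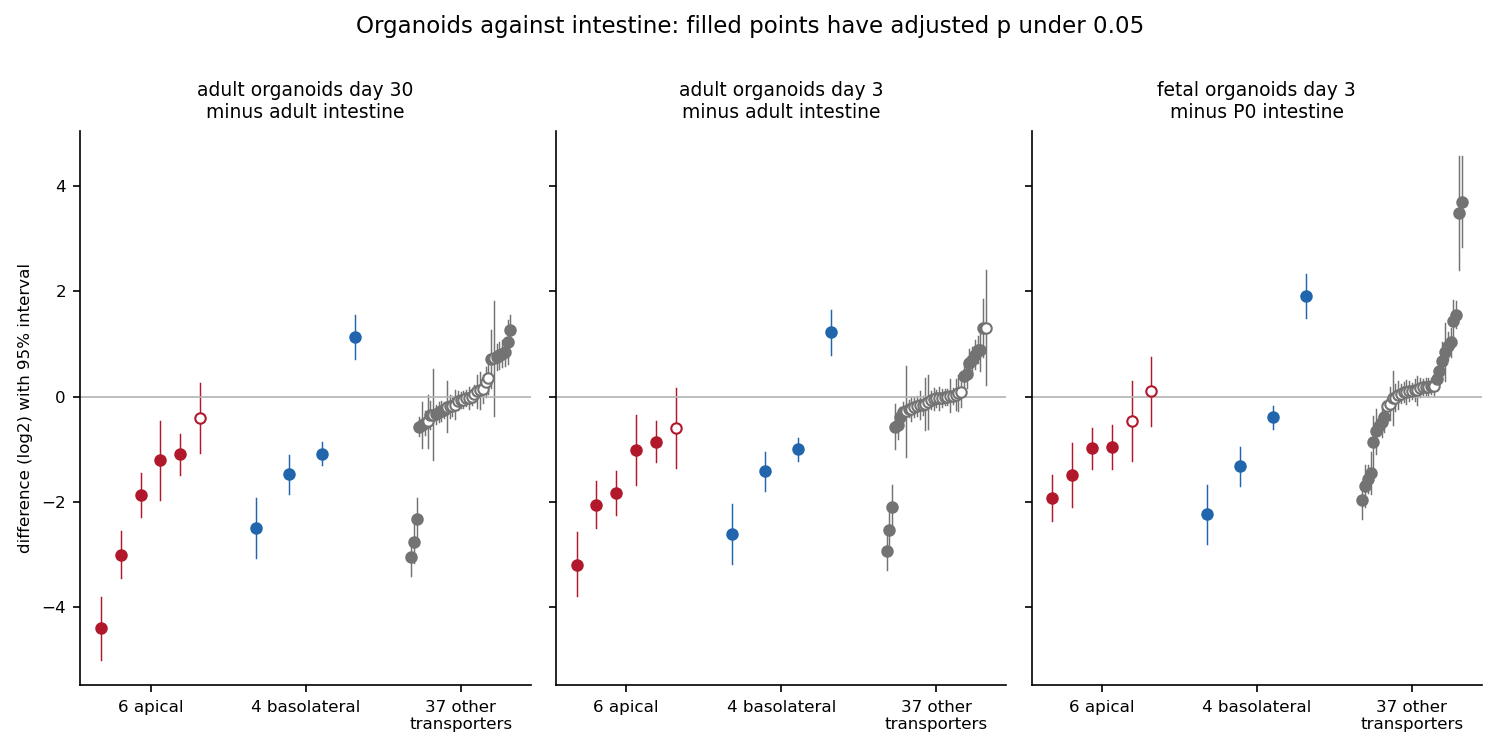
Log2 differences with 95% intervals (vertical axis, log2) for the 6 apical, the 4 basolateral and 37 other amino acid transporter genes (horizontal axis) in organoids minus intestine, 1 panel a comparison and filled points where the adjusted p was under 0.05. Slc7a5 is the basolateral point above 0 in all 3 panels, at 1.13, 1.23 and 1.92.

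Enterocyte and proliferation markers moved with these differences. Of 16 enterocyte genes 14 were lower in adult day 30 organoids than in adult intestine and 0 higher, 12 were lower in adult day 3 organoids and 0 higher, and 13 were lower in fetal day 3 organoids than at P0 and 1 higher. The mean of the enterocyte list was 9.36 to 9.75 on adult day 30 arrays and 9.63 to 10.11 on adult day 3 arrays, against 10.90 to 11.15 on adult intestine arrays, and 9.02 to 9.85 on fetal day 3 arrays, against 10.19 to 10.23 on P0 arrays. Vil1, a brush border gene, was lower by 1.62 ± 0.11 on the log2 scale in adult day 30 organoids than in intestine.

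All 7 measured proliferation genes were higher in each of the 3 organoid groups than in intestine. Their mean was 8.20 to 9.02 in the 3 organoid groups, against 7.35 to 7.83 in adult and 7.21 to 7.67 in P0 intestine. In fetal day 3 organoids 8 of 8 stomach genes were also higher than at P0. Mesenchyme genes were lower in organoids for 9 of 9 in all 3 comparisons, while the mean of 10 epithelium genes was 9.96 to 10.28 on these organoid arrays, against 10.13 to 10.45 in adult and 9.56 to 9.68 in P0 intestine. The part of these markers in the transporter differences was not tested.

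**Figure D5:**
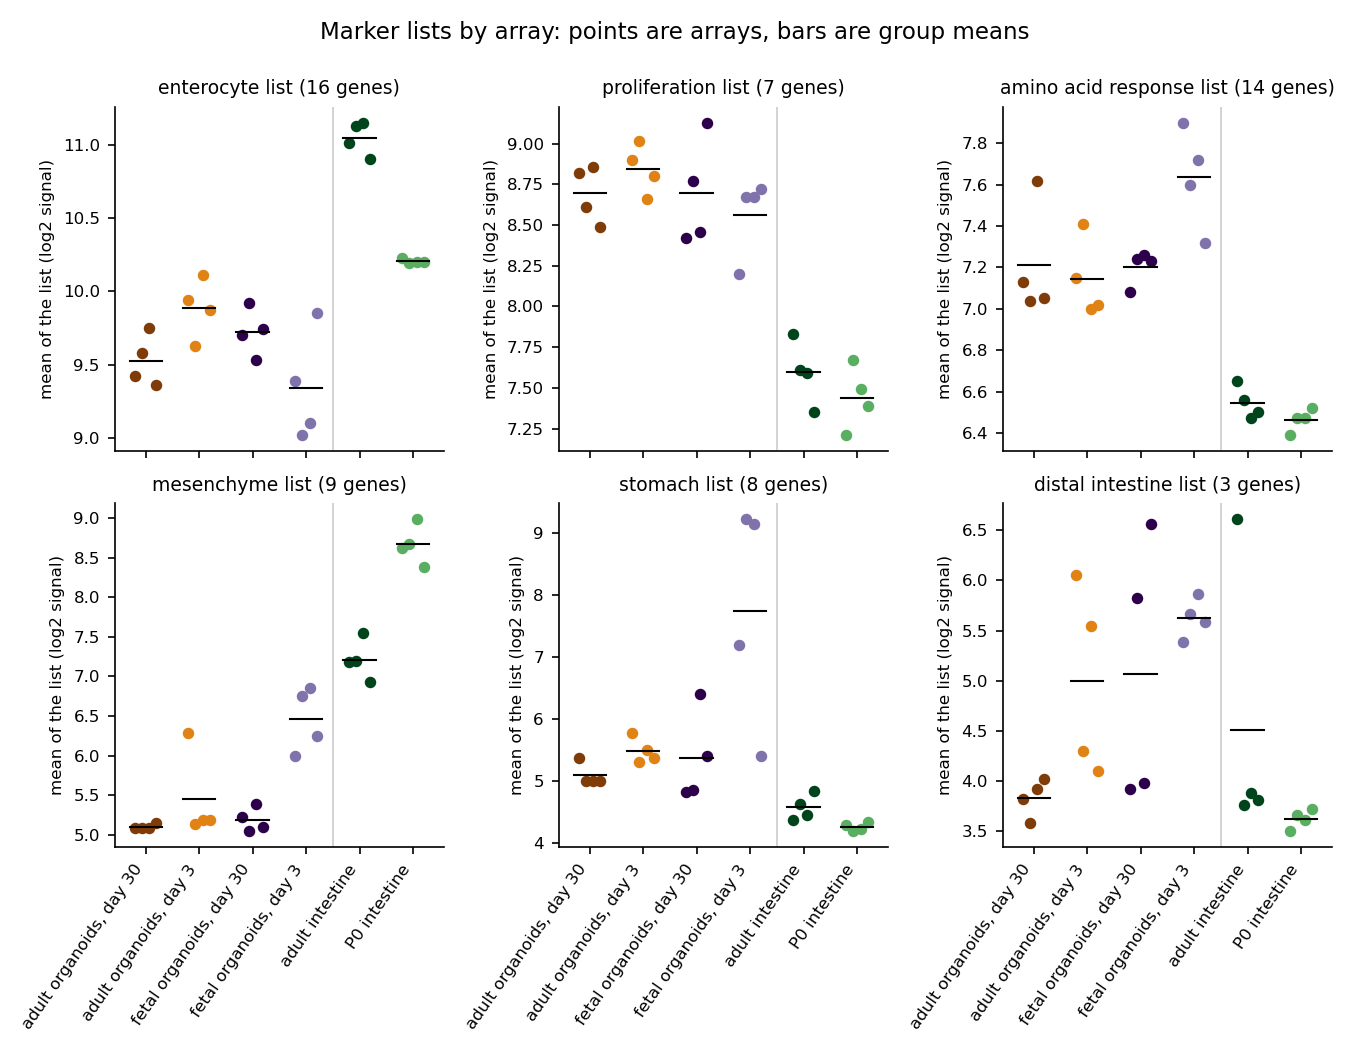
Mean log2 level (vertical axis, log2 signal) of 6 marker lists on each of 4 arrays in 6 groups (horizontal axis), with points for arrays and bars for group means. The enterocyte mean is highest in adult intestine (10.90 to 11.15), the proliferation and amino acid response means are higher on organoid than on intestine arrays, and adult intestine array 1 is apart in the distal list at 6.61, against 3.76 to 3.88.

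The 37 other amino acid transporter genes that were measured did not follow the members as a group. In adult day 30 organoids minus intestine 11 were lower and 7 higher, in adult day 3 organoids 8 and 8, and in fetal day 3 organoids minus P0 intestine 9 and 11, with medians of -0.07, -0.03 and 0.11. The shares called over all genes were 38.0%, 35.4% and 44.3% in these comparisons. By group mean, some of the 37 were below the negative control median, and no member was. They numbered 8 in each adult organoid group, 5 in fetal day 3 organoids, 10 in adult and 11 in P0 intestine, and the medians include them. Of the 24 that passed the filter on low genes, 8 were lower and 8 higher, then 7 and 9, and 9 and 7, in the same order of comparisons. The lowest in adult day 30 organoids were Slc43a2, a basolateral exporter of neutral amino acids, at -3.05 ± 0.18, Slc36a1, a proton-coupled carrier, at -2.76 ± 0.19, and Slc16a10, a basolateral carrier of aromatic amino acids, at -2.32 ± 0.19. The same 3 genes were lower in adult day 3 organoids at -2.93, -2.53 and -2.09. Slc1a5, a glutamine carrier, was higher in adult day 30 organoids at 1.27 ± 0.13.

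In fetal day 3 organoids Slc6a14, a carrier of neutral and cationic amino acids, was higher than at P0 by 3.70 ± 0.42 and Slc7a11, the light chain of the cystine-glutamate exchanger, by 3.49 ± 0.52. Both were below the negative control medians of 4.28 to 4.43 on the P0 arrays, so these differences of signals do not give the size of the change in RNA. On the fetal day 3 arrays Slc6a14 had 4.64, 6.59, 6.93 and 7.44, against 2.63 to 2.73 at P0, and array 1 was the lowest. Slc7a11 had 8.45, 7.26, 7.19 and 5.58 there, against 3.47 to 3.87 at P0, and array 1 was the highest. Over fetal culture both fell, Slc6a14 by 3.06 ± 0.42 and Slc7a11 by 1.93 ± 0.52 on the log2 scale, with Slc38a4 and Slc38a3 falling by 1.62 and 1.17. In all, 9 of the 37 fell and 3 rose in fetal culture, against 8.76% and 6.77% of all genes. In adult culture 0 were called by limma, against 0.0489% of all genes, and 7 had an unadjusted p under 0.05, against 8.41%. Of the culture difference 4 were called, against 2.99% of all genes, led by Slc6a14 at -2.99 ± 0.59 (adjusted p = 0.0045). In adult organoids Slc6a14 averaged 2.87 at day 3 and 2.81 at day 30, and Slc38a4 averaged 3.57 and 3.53. These means were below the negative control medians, so a fall of either gene in adult culture could not have been seen. Their fetal day 30 means, 3.34 and 3.56, were below those medians too.

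With age, 10 of the 37 were higher and 9 lower in adult than in P0 intestine, against 3 and 10 in day 3 organoids and 1 and 2 in day 30 organoids. Over all genes 27.1%, 24.6% and 8.97% were called. In day 3 organoids Slc6a14 was lower in adult than in fetal ones by 3.53 ± 0.42 on the log2 scale, with adult signals below the negative control median. Slc38a4 at -2.32, Slc36a4 at -1.59 and Slc38a1 at -1.55 were the lowest in adult intestine, and Slc43a2 the highest at 1.18. At day 30 the called ones were Slc1a3, a glutamate carrier like Slc1a1, at 1.10 ± 0.27, Slc6a6, the taurine carrier, at -0.92 ± 0.11, and Slc36a4 at -0.81 ± 0.21. Slc6a20b, the close paralogue of Slc6a20a, was singled out after its values were seen. It was higher in adult than P0 intestine by 0.82 ± 0.25 (adjusted p = 0.015) and in adult than fetal day 3 organoids by 0.75 ± 0.25 (adjusted p = 0.027), and whether probes of the pair share targets was not tested.

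Of 4 other peptide transporter genes, Slc15a3, a lysosomal carrier, fell over fetal culture by 1.01 ± 0.11 on the log2 scale (adjusted p = 1e-06). It had 5.09, 5.22, 5.21 and 5.11 on fetal day 30 arrays and 6.15, 6.11, 6.35 and 6.05 on fetal day 3 arrays, with no overlap. Slc15a3 was lower in adult day 30 organoids than in adult intestine by 0.90 ± 0.11 on the log2 scale and higher in fetal day 3 organoids than at P0 by 0.55 ± 0.11. Slc15a4 was higher in organoids than in intestine by 0.22, 0.28 and 0.32 in the adult day 30, adult day 3 and fetal comparisons, and Slc15a2 was not called in any comparison.

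Genes of the amino acid response, the programme that ATF4 drives when amino acids are scarce, were examined beside Slc7a5, which is among its known targets. In adult day 30 and day 3 organoids 8 of 14 such genes were higher than in intestine and 0 lower, and in fetal day 3 organoids 11 were higher than at P0 and 0 lower. Over all genes 22.8% and 21.9% were higher in the adult and 30.5% in the fetal comparison, and the part of this list in the Slc7a5 differences was not tested. Slc3a2, the heavy chain that pairs with Slc7a5, went the other way and was lower in these comparisons, at -1.09, -1.0 and -0.39. The leading genes of the list in fetal organoids were Nupr1 at 2.39 ± 0.29, Asns, which makes asparagine, at 2.36 ± 0.23, Shmt2 at 2.0 ± 0.17 and Psat1, of serine synthesis, at 1.83 ± 0.21. The mean of the list was 7.32 to 7.90 on fetal day 3 arrays and 7.08 to 7.26 on fetal day 30 arrays. At day 3, 6 of the 14 were lower in adult than in fetal organoids and 0 higher, against 10.1% and 14.5% of all genes. Over fetal culture 5 fell and 0 rose, against 8.76% and 6.77%. In adult culture 0 were called by limma, against 0.0489% of all genes, and 0 had an unadjusted p under 0.05, against 8.41%.

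Likeness of pattern was measured as the root mean square distance between centred group means over the 6 groups of 24 arrays, for the 5 transporters whose means spanned at least 2. Nearest to Slc15a1 were Ceacam20 (distance 0.35), H2-Ab1 (0.40) and Slc9a3 (0.43), and nearest to Slc6a19 were Apoa4 (0.22), Asah2 (0.23) and Podn (0.24). Slc7a8 had Btnl6 (0.23), Slc43a2 (0.23) and Podn (0.24), Slc1a1 had Cldn15 (0.30), Vdr (0.35) and Malrd1 (0.36), and Slc7a5 had Lpcat4 (0.13), Psat1 (0.13) and S100a14 (0.18).

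Within the family the nearest pair among these was Slc6a19 and Slc7a8, at a distance of 0.37. The gene of the family nearest to Slc15a1 was Slc6a19 at 0.60, and that nearest to Slc1a1 was Slc6a20a at 0.90. For Slc7a5 it was its heavy chain Slc3a2, at 1.04. These distances describe 6 group means each.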

How the data were processed

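Total RNA (1 µg, Trizol) from 4 arrays in each of 6 groups was biotin labelled and hybridised, per the labels' protocols. The authors deposited log2 values per probe set, made with Affymetrix Expression Console and RMA per the submitters' processing notes. Program versions, the build of the annotation and the set of arrays that went through RMA jointly were not given in the sources used here. Array medians of the deposited values ran from 4.20 to 4.45. Precision is limited by having 4 arrays a group.

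Of 65956 non-control clusters, 31258 named 1 gene, which gave 30702 genes, with the highest mean probe set kept where a gene had several. A model of 6 group means was fitted to all 24 arrays with limma 3.58.1 in R 4.3.3, with tables made in Python 3.11.15. There were 9 comparisons, each Benjamini-Hochberg adjusted over 30702 genes, with 0.05 as threshold, and 95% intervals are unadjusted. The steps were tested on simulated data. The members, gene lists and rules were chosen with earlier results of these data known. Named were the 10 members, all partner and peptide transporter genes, up to 4 called genes of largest difference per comparison in the other transporter and amino acid response lists, a few fixed cell type markers with up to 3 per comparison, and the 3 genes most like a member with a span of at least 2. Alternatives were a filter on low genes, centring, repeated quantile normalization, array weights, the compared groups alone, a replicate block, other thresholds and leaving out arrays. The model used no pairing by replicate number. Deviations from group means correlated at over 0.1 in 9 of 48 same-numbered pairs of arrays, and 0 pairs of groups had all of theirs over 0.1. Whether same-numbered arrays shared animals or cultures cannot be settled by these values.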

Additional observations from a re-analysis of the deposited data

Results flagged for a closer look

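Of 60 groups of 4 arrays, 1 per transporter and group, 2 held an array farther from its neighbour than Dixon's 95% limit allows, where chance gives about 1 in 20. Slc6a19 was 9.60 on P0 intestine array 1, against 9.47 to 9.49 on the other 3 arrays. Slc3a1 was 10.44 on P0 intestine array 3, against 10.40 to 10.41 on the others. Both gaps were small beside the differences reported for these genes.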

How the results depend on the processing

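Of 26 transporter calls between organoids and intestine, 1 ended under an alternative with the same threshold, that of Slc1a1 in adult day 3 organoids, 2 ended at an adjusted p under 0.01 and 4 with at least a 2-fold change. Counts of called members moved by over 1.5 times as follows. With array weights they were 2 in adult culture, 1 in the culture difference, 2 in age at day 30 and 5 in age of the intestine. Over all genes array weights gave 203 higher and 169 lower in adult culture, against 8 and 7 as reported. In the culture difference they gave 480 and 921, against 313 and 605. In age at day 30 they gave 2397 and 913, against 2088 and 666, and in age of the intestine 6520 and 4612, against 4598 and 3733. With the compared groups alone there were 5 in age of the intestine, with 4299 higher and 3835 lower over all genes. At an adjusted p under 0.01 there were 2 in age at day 3 and 0 in age at day 30, against 15.7% and 4.2% of all genes. With at least a 2-fold change there were 1 in fetal culture, 2 in age at day 3, 0 in age at day 30 and 5 in fetal organoids against P0. Of all genes 2.37%, 3.34%, 0.375% and 5.87% were called there, in the same order. Without fetal day 3 arrays 2 and 3 there were 2 in age at day 3, and with the filter on low genes 2 in age at day 30. Over all genes the first gave 3041 higher and 2221 lower. The second gave 2238 and 766 of the 16966 genes that passed the filter. With the replicate block there were 0 in age at day 30, where Slc6a19 was at -0.68 (adjusted p = 0.071). Over all genes the block gave 1999 higher and 616 lower there. Same-numbered arrays correlated at -0.31 to 0.30 in their deviations. In the fit of the compared groups alone, age at day 30 lost Slc6a19 (adjusted p = 0.063) and gained Slc1a1 (adjusted p = 0.027).

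Of the 37 other transporters, fetal culture had 6 called with the compared groups alone, 7 at 0.01, 4 with a 2-fold change and 6 without fetal day 3 arrays 2 and 3. Over all genes the groups alone gave 1011 higher and 1491 lower, and leaving out these arrays 1266 and 1811. At 0.01 the share was 8.87%, and with a 2-fold change 2.37%. Adult culture had 2 with array weights, with 203 higher and 169 lower over all genes. Age at day 30 had 1 each with the groups alone, at 0.01 and with a 2-fold change. Over all genes the groups alone gave 1228 higher and 386 lower there, and the other 2 rules 4.2% and 0.375%. With a 2-fold change there were 6 in age at day 3, 6 in age of the intestine, 4 and 5 in adult day 3 and day 30 organoids against intestine, and 9 in fetal organoids against P0. Of all genes 3.34%, 5.09%, 7.92%, 9.38% and 5.87% were called by this rule, in the same order.

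With 1 array left out, called members numbered 2 to 3 in fetal culture, 0 to 2 in adult culture, 0 to 2 in the culture difference, 3 to 4 in age at day 3, 0 to 1 in age at day 30, 3 to 4 in age of the intestine, 8 to 9 and 9 in adult day 3 and day 30 organoids, and 8 in fetal organoids against P0. Others numbered 9 to 13, 0, 4 to 5, 10 to 14, 2 to 4, 15 to 20, 14 to 16, 14 to 18 and 18 to 21 in that order of comparisons.

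Only uncalled differences turned sign. Slc6a19 in fetal culture was at 0.07 after centring and 0.11 with array weights, and in adult culture array weights gave 0.02 for Slc7a9 and 0.01 for Slc7a7. In age at day 3 without fetal arrays 2 and 3, Slc6a19 was at -0.17, Slc3a1 at -0.04 and Slc7a8 at -0.38, and Slc6a20a was at 0.10 against P0. In age at day 30 Slc6a20a was at -0.02 after centring, and repeated quantile normalization gave -0.14 for it, -0.03 for Slc7a9 and -0.05 for Slc7a7. With 1 array left out the ranges were, in fetal culture, -0.23 to 0.18 for Slc6a19, and in adult culture -0.23 to 0.13 for Slc7a9, -0.19 to 0.06 for Slc7a7, -0.02 to 0.23 for Slc7a8 and -0.21 to 0.04 for Slc7a5. The culture difference of Slc3a1 ran from -0.30 to 0.11. Age at day 3 gave -0.30 to 0.01 for Slc7a7 and -0.04 to 0.51 for Slc7a8. Age at day 30 gave -0.36 to 0.14 for Slc15a1, -0.19 to 0.23 for Slc6a20a, -0.12 to 0.16 for Slc7a9 and -0.09 to 0.16 for Slc7a7. Age of the intestine gave -0.14 to 0.01 for Slc7a7. Against intestine Slc1a1 ran from -0.63 to 0.01 in adult day 30 organoids and from -0.20 to 0.28 in fetal day 3 organoids. The cause was not tested for any of these.

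Centring moved no member by over 0.09 and repeated quantile normalization none by over 0.32. Among all called genes, the share higher moved from 43.6% to 65.6% in fetal culture, from 53.3% to 33.3% in adult culture, from 34.1% to 45.0% in the culture difference, from 55.2% to 40.2% in age of the intestine and from 68.9% to 54.3% in fetal organoids against P0 after centring. After quantile normalization it was 0.0% in adult culture, 43.1% in age of the intestine, 53.3% in fetal organoids against P0 and 52.3% in age at day 30, against 75.8% as reported. Near-background signals, such as Slc1a1 at P0, limit the size of a fold.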
